A study of Mus musculus with 6 samples.

Results

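The 10 genes described here make and fill the MHC class I molecule. They are the heavy chain genes H2-K1 and H2-D1, the light chain gene B2m, the peptide transporter genes Tap1 and Tap2, the loading chaperone gene Tapbp, the immunoproteasome genes Psmb8, Psmb9 and Psmb10, and the regulator gene Nlrc5. They were chosen by symbol, and all 10 were found among the 23284 genes of the files and had enough reads to be tested. Counts were compared between 3 NKG2D+ and 3 NKG2D- libraries of sorted lymph node T cells from C3H/HeJ mice. All were CD3+CD8+CD44+CXCR3+ cells, markers that antigen-experienced CD8 T cells carry, and the sort split them by NKG2D, the activating receptor that Klrk1 encodes. The series description names 3 mice as the source, and age, sex and disease state were not stated in the sources used. No transgene or treatment is named in the labels.

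Class I molecules show peptides from inside the cell to CD8 T cells and to inhibitory receptors of NK cells, and nearly all nucleated cells carry them. Proteasomes cut proteins into peptides, and interferon-gamma replaces their constitutive catalytic subunits with those encoded by Psmb8, Psmb9 and Psmb10. TAP carries the peptides into the endoplasmic reticulum, where tapasin holds the empty heavy chain beside TAP until a peptide fits. NLRC5 raises the transcription of class I genes through a conserved promoter module, and T cells have long been known to express it.

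The strain limits what the heavy chain counts measure. C3H/HeJ carries the H-2k haplotype, and the mm9 genome named in the submitters' processing notes comes from C57BL/6 mice, which carry H-2b. Reads of the k alleles had to align to b alleles that differ from them, so the H2-K1 and H2-D1 counts are of reads near enough to the reference. The same strain gave both populations, so the same alleles were counted on both sides of each comparison. Levels of different genes are not set against each other, since no gene length of the counting annotation is at hand.

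The libraries held 41168816 to 89184611 gene counts. Klrk1 checked the sort, with 409, 312 and 342 CPM (counts scaled to a common library size after TMM, the trimmed mean of M-values) in NKG2D+ libraries 1, 2 and 3, against 34.5, 37.1 and 36.1 CPM in NKG2D- libraries 1, 2 and 3. By the edgeR quasi-likelihood test the log2 fold change was 3.30 (SE 0.12) at an adjusted p of 0.000185. Cd3e and Cd8a stood at 412 to 502 and 1135 to 1934 CPM in NKG2D+ libraries, against 403 to 467 and 1187 to 1225 CPM in NKG2D- libraries. Cd8b1 was at 1073, 758 and 611 CPM in NKG2D+ and 933, 826 and 828 CPM in NKG2D- libraries 1, 2 and 3. Its log2 fold change was -0.08 (SE 0.20, adjusted p = 0.852 by edgeR). Cxcr3 stood at 252 to 353 CPM in NKG2D+ and 238 to 274 CPM in NKG2D- libraries. Cd44, by which both populations were sorted, was at 430, 177 and 224 CPM in NKG2D+ and 137, 136 and 133 CPM in NKG2D- libraries 1, 2 and 3, without overlap. Its log2 fold change was 1.03 (SE 0.31, adjusted p = 0.130 by edgeR), and it passed by DESeq2 and without NKG2D+ library 1 or 2. Markers of other lymph node cells differed between the groups in several lists. The summed level of 14 B cell markers was 668, 420 and 469 CPM in the NKG2D+ libraries 1, 2 and 3, against 117, 309 and 256 CPM in NKG2D- libraries 1, 2 and 3. That of 10 class II pathway genes was 1366, 542 and 630 CPM in NKG2D+ and 185, 496 and 348 CPM in NKG2D- libraries 1, 2 and 3. For 21 myeloid and dendritic cell markers it was 22.3 to 42.1 CPM in NKG2D+ and 15.1 to 17.03 CPM in NKG2D- libraries. For 6 NK cell markers the sums overlapped, at 147 to 366 CPM in NKG2D+ and 285 to 308 CPM in NKG2D- libraries. Of the 5 NK markers tested, 4 had an unadjusted p under 0.05, against 21.1% of all genes, and the median log2 fold change was 1.17. By edgeR 2 were called higher, against 1.65% of all genes. These were Klre1, at 3.03, 13.5 and 11.5 CPM in NKG2D+ and 0.730, 0.778 and 1.34 CPM in NKG2D- libraries 1, 2 and 3, and Ncam1, under 1 CPM in every library (adjusted p = 0.0498 each). The sum of 4 gamma-delta and NKT cell markers did not overlap, at 65.7, 109.5 and 68.0 CPM in NKG2D+ and 41.7, 34.9 and 34.8 CPM in NKG2D- libraries 1, 2 and 3. Most of it was Cd163l1 (log2 fold change 1.13, adjusted p = 0.0538 by edgeR). The 4 CD4 T cell markers summed to 44.4 to 123 CPM in NKG2D+ and 47.8 to 55.9 CPM in NKG2D- libraries. Foxp3 among them was lower in all NKG2D+ libraries (log2 fold change -1.81, adjusted p = 0.0687 by edgeR). Of the 4, 2 had all NKG2D+ libraries above and 1 all below, against 15.1% and 14.1% of all genes. Their log2 fold changes ran from -1.81 to 3.44 with a median of 0.40. By edgeR 0 of the 4 passed, and DESeq2 called 2 higher and 1 lower, against 11.1% of all genes. The 4 plasma cell markers summed to 1.49 to 4.08 CPM in NKG2D+ and 1.21 to 3.63 CPM in NKG2D- libraries. No gene of these lists was at 0 in every library. B cells and dendritic cells carry much class I, and the part of these cells in the results below was not tested. A B cell covariate is given there as an alternative fit. The B cell sums did not overlap between the groups, and 13 of the 14 markers had all NKG2D+ libraries above. With 6 libraries the covariate fit therefore cannot separate B cell level from NKG2D group.

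None of the 10 genes passed the test between populations. By edgeR 0 of 10 had an adjusted p under 0.05 over the 12951 genes tested, where 2.02% of all genes passed, 1.65% as higher and 0.363% as lower in NKG2D+ cells. At an unadjusted p under 0.05 there were 3 of the 10, H2-D1, Tap1 and H2-K1, all higher in NKG2D+ cells, against 12.5% of all genes in that direction and 21.1% in either. DESeq2 called 2 of the 10, H2-D1 and Tap1, where it called 11.1% of all genes, and limma-voom called 0 where it called 0.641%. With the replicate number as a block edgeR called 0 of the 10 and 0.525% of all genes, and with B cell marker level as a covariate 0 and 0.0154%. It called H2-D1 without NKG2D+ library 1 (4.13% of all genes) and H2-D1 and Tap1 without NKG2D+ library 2 (9.96%). It called 0 of the 10 without NKG2D+ library 3 (0.115%) or NKG2D- library 1, 2 or 3 (0.158%, 0.0981% and 0.0607%), with DESeq2's size factors or upper quartiles for scaling (1.9% and 2.08%), and with no filter on low counts (1.28%). The log2 fold change was positive for 9 of the 10, against 47.2% of all genes, and its median was 0.17, against -0.01 for all genes. In all 3 same-numbered pairs the NKG2D+ library was higher for 8 of the 10, against 25.9% of all genes. The 10 genes together held 0.83%, 0.624% and 0.673% of the gene counts in NKG2D+ libraries 1, 2 and 3, against 0.56%, 0.578% and 0.562% in NKG2D- libraries 1, 2 and 3.

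**Figure D1:**
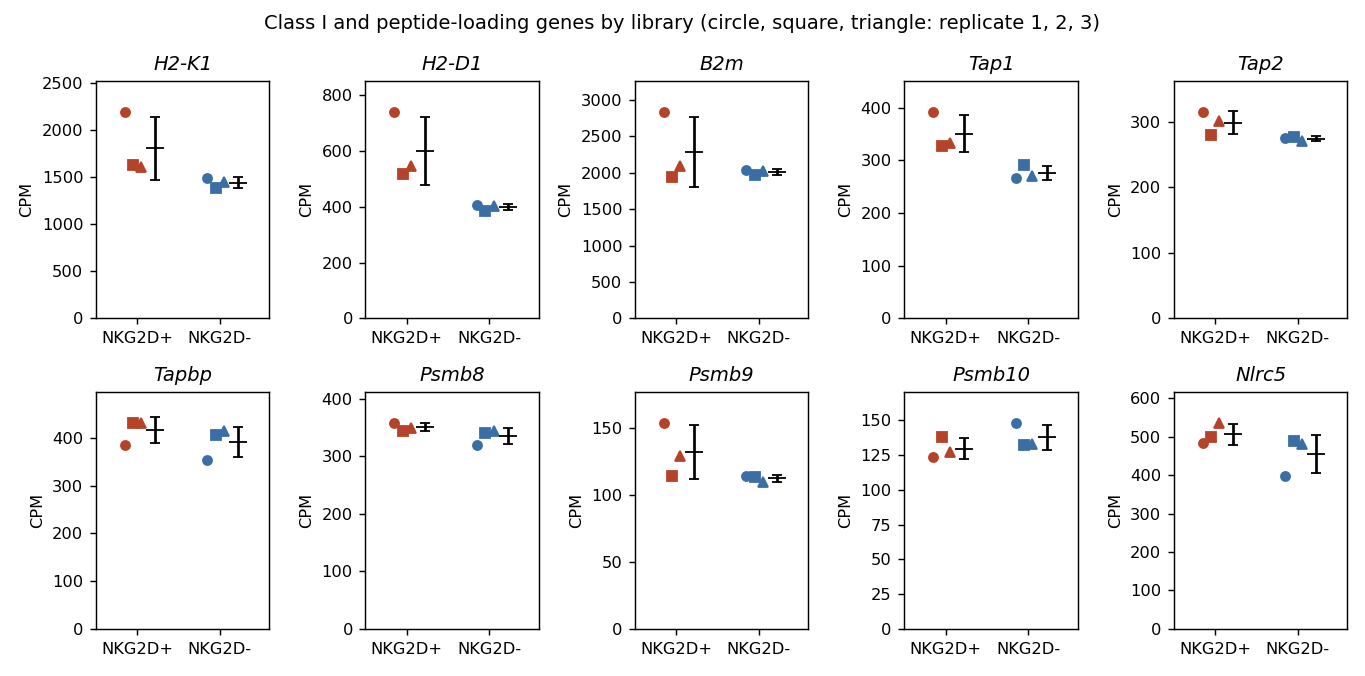
Level of each of the 10 genes in CPM (vertical axis from 0, a scale for each gene) in every NKG2D+ and NKG2D- library, with the mean and SD of 3 libraries in black; circles, squares and triangles mark replicates 1, 2 and 3. The NKG2D+ points of H2-K1, H2-D1, Tap1 and Tap2 lie above all NKG2D- points, and NKG2D+ library 1 is the highest point for 7 genes.

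H2-D1, which encodes a classical class I heavy chain, had the widest difference of the 10 genes. Its level was 741, 517 and 545 CPM in the NKG2D+ libraries 1, 2 and 3, against 408, 387 and 402 CPM in NKG2D- libraries 1, 2 and 3. All NKG2D+ libraries lay above all NKG2D- libraries, which themselves lay close together. The fold was 1.51 (95% interval 1.20 to 1.89 from the edgeR standard error), the log2 fold change being 0.59 (SE 0.14) at an adjusted p of 0.084. The NKG2D+ library was higher in 3 of 3 same-numbered pairs, by 1.81, 1.34 and 1.36 times. Leaving out NKG2D+ library 1 gave a log2 fold change of 0.41 with an adjusted p of 0.0174, and leaving out NKG2D+ library 2 gave 0.69 with an adjusted p of 0.0225. DESeq2 gave an adjusted p of 0.00232 on all 6 libraries, and limma-voom gave 0.118. By edgeR the adjusted p was 0.171 to 0.296 with each other library left out and 0.102 with the replicate block. In these bulk samples fewer cells of a type and less RNA per cell cannot be told apart. With the mean log2 CPM of the B cell markers as a covariate the log2 fold change was 0.39 (SE 0.22, adjusted p = 0.9995 by edgeR).

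H2-K1, the other classical heavy chain gene of the reference set, stood at 2190, 1622 and 1602 CPM in the NKG2D+ libraries 1, 2 and 3, against 1493, 1384 and 1443 CPM in NKG2D- libraries 1, 2 and 3. Again all NKG2D+ libraries were above all NKG2D- libraries, with library 1 far above the other NKG2D+ libraries. The fold was 1.25 (95% interval 1.00 to 1.56), the log2 fold change being 0.33 (SE 0.14) at an adjusted p of 0.229 by edgeR. Without NKG2D+ library 1 the log2 fold change was 0.16 (SE 0.08), and with the B cell covariate 0.17 (SE 0.22).

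B2m encodes beta-2-microglobulin, the light chain that every classical heavy chain needs to reach the surface. Its level was 2837, 1942 and 2091 CPM in the NKG2D+ libraries 1, 2 and 3, against 2032, 1967 and 2030 CPM in NKG2D- libraries 1, 2 and 3. The groups overlapped, and NKG2D+ library 2 was the lowest of all 6. The fold was 1.14 (95% interval 0.894 to 1.45), the log2 fold change 0.19 (SE 0.15) and the adjusted p 0.523 by edgeR. Without NKG2D+ library 1 the log2 fold change was 0.0066, and with the B cell covariate -0.04.

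Ratios within a library need no scaling between libraries. Those of the chain genes' RNA counts were compared only between populations. The H2-D1 to B2m count ratio was 0.261, 0.266 and 0.261 in NKG2D+ libraries 1, 2 and 3, against 0.201, 0.197 and 0.198 in NKG2D- libraries 1, 2 and 3. Its mean was 0.263 ± 0.003 in NKG2D+ against 0.198 ± 0.0022 in NKG2D- libraries (SD, n = 3 each), so the groups stood apart by much more than their spread. The ratio was as high in NKG2D+ libraries 2 and 3 as in library 1, although library 1 held the most of each RNA. H2-D1 to H2-K1 was 0.338, 0.319 and 0.340 in NKG2D+ libraries 1, 2 and 3, and 0.273, 0.279 and 0.278 in NKG2D- libraries 1, 2 and 3, again without overlap. H2-K1 to B2m differed less, at 0.791 ± 0.038 in NKG2D+ against 0.716 ± 0.016 in NKG2D- libraries (SD, n = 3 each). These ratios are descriptions and were given no test.

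How far reads of the heavy chain genes can be placed differs from the other members. In the GENCODE M21 transcripts of C57BL/6, 6.87% of the 2008 distinct 50-base stretches of H2-K1 and 13.9% of the 2275 of H2-D1 also occurred in transcripts of other genes. H2-D1 shared most with H2-Q1 (6.68%) and H2-K1 with H2-D1 (5.43%), while B2m, Psmb8, Psmb9, Psmb10 and Nlrc5 shared none. Tap1 and Tap2 shared 0.834% and 0.708%, and Tapbp 3.50%. The length of 50 was set here, since the sources used give no read length. Reads aligned to several places made up 20.3%, 20.96% and 19.7% of all counted reads in NKG2D+ libraries 1, 2 and 3, against 24.3%, 21.6% and 26.2% in NKG2D- libraries 1, 2 and 3. These reads are in no gene's count, and their part in the H2-D1 and H2-K1 differences was not tested.

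**Figure D2:**
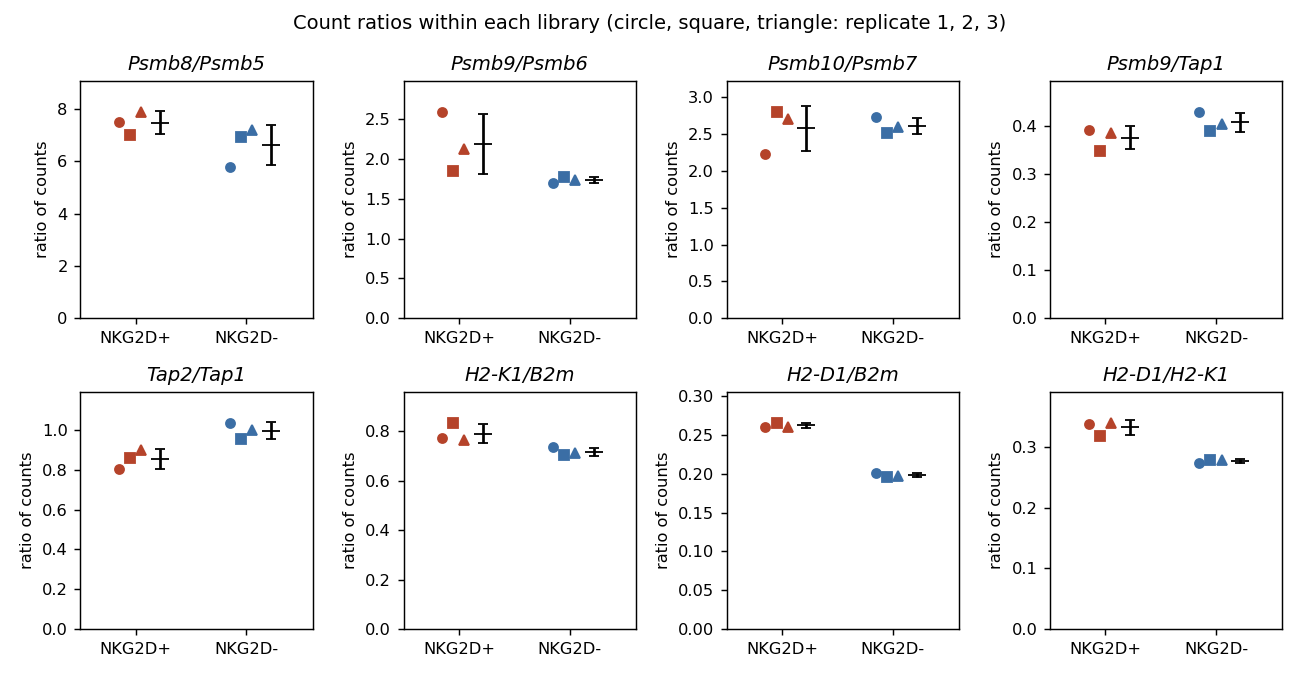
Count ratio of each named gene pair (vertical axis from 0) in every NKG2D+ and NKG2D- library, with the mean and SD of 3 libraries in black; circles, squares and triangles mark replicates 1, 2 and 3. H2-D1/B2m sits at 0.261 to 0.266 in NKG2D+ and 0.197 to 0.201 in NKG2D- libraries, while Psmb10/Psmb7 overlaps between the populations.

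NLRC5 is known to act through a promoter module of class I genes. The promoters of the heavy and light chain genes are shown for that reason. Of the module, only letters of the X2 and Y boxes were searched. The windows below come from RefSeq on build GRCm38.p6, each with 250 bases before and 50 after an annotated start, and they are C57BL/6 sequence, not that of C3H/HeJ. RefSeq windows matched 8 of the 10 genes by symbol, all but Tap2 and Nlrc5. Capitals mark motif matches on either strand, and where a gene had several windows the first was used.
H2-K1 (chr17:34000298-34000597, minus strand): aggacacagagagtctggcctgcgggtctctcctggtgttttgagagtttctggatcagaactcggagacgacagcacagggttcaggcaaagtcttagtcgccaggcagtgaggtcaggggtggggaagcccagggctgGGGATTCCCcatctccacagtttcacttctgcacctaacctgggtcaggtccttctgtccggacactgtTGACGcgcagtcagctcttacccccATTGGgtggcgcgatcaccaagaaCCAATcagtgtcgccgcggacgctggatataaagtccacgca
H2-D1 (chr17:35262844-35263143, plus strand): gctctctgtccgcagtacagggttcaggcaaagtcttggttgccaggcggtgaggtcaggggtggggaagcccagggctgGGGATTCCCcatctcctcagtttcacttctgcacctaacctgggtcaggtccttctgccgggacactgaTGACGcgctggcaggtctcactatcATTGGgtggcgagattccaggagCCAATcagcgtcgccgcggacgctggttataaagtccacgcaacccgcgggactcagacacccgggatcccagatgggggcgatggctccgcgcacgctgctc
B2m (chr2:122147437-122147736, plus strand): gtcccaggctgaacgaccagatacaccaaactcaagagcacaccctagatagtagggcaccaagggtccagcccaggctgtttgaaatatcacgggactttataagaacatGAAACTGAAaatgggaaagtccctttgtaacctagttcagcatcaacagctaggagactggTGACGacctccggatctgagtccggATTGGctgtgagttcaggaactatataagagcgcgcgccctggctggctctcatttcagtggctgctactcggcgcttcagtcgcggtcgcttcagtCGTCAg
The motifs searched were GAAANNGAA for the interferon-stimulated response element, TTCNNNGAA for the gamma-activated site, CCAAT for the Y box, TGACG for the X2 box and GGGATTCCC for a kappa-B site. H2-K1, H2-D1 and B2m each held TGACG followed by ATTGG, the Y box on the opposite strand, with their first bases 25 bases apart. Counted from the annotated start, TGACG began at -41 in H2-K1 (by the first of its 2 windows), -101 in H2-D1 and -78 in B2m. That arrangement, whose spacing was chosen after these windows were read, occurred in 31 of 32851 RefSeq windows (0.0944%) and in none of the other 5 members matched. Apart from spacing, CCAAT was in 6 of the 8 members and 37.4% of all windows, and TGACG in 5 of 8, Tap1 and Psmb9 by their shared window, and 20.8%. GGGATTCCC was in H2-K1 and H2-D1, at -110 and -170, and in 0.353% of all windows. GAAANNGAA matched B2m among the 8 (8.56% of all windows), and TTCNNNGAA matched Psmb8 (8.3% of all windows). Only these letter patterns were searched, so a window without a match can still hold another form of the element. Aligned without gaps on the kappa-B match, the H2-K1 and H2-D1 windows were identical at 176 of 240 bases (73.3%). Of the genes with that arrangement of TGACG and ATTGG, 22 were tested, the 3 members included. Among them 10 had a positive log2 fold change, 0 passed by edgeR and the median was -0.02. Whether NLRC5 acts on these genes was not tested.

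Tap1, which encodes the chain of the peptide transporter that pairs with the Tap2 product, stood at 392, 327 and 333 CPM in the NKG2D+ libraries 1, 2 and 3, against 266, 291 and 270 CPM in NKG2D- libraries 1, 2 and 3. All NKG2D+ libraries lay above all NKG2D- libraries. The fold was 1.27 (95% interval 1.10 to 1.48), the log2 fold change being 0.35 (SE 0.09) at an adjusted p of 0.0957 by edgeR. The adjusted p was 0.0148 by DESeq2 and 0.0469 by edgeR without NKG2D+ library 2, and 0.0749 to 0.329 with each other library left out. With the B cell covariate the log2 fold change was 0.17 (SE 0.11).

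Tap2 stood at 315, 281 and 301 CPM in the NKG2D+ libraries 1, 2 and 3, against 276, 277 and 271 CPM in NKG2D- libraries 1, 2 and 3. The NKG2D+ libraries were all higher, by little, and the fold was 1.09 (95% interval 0.975 to 1.22, adjusted p = 0.355 by edgeR). With H2-K1, H2-D1 and Tap1 it made 4 of 10 members whose NKG2D+ libraries all lay above the NKG2D- libraries, against 15.1% of all genes tested, and 0 of 10 lay all below, against 14.1%. The Tap2 to Tap1 ratio was 0.804, 0.857 and 0.902 in NKG2D+ libraries 1, 2 and 3, against 1.04, 0.953 and 1.00 in NKG2D- libraries 1, 2 and 3. The groups did not overlap, NKG2D+ being lower, and this ratio too was given no test.

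Tap1 lies head to head with Psmb9, and the order in the annotation runs Psmb9, Tap1, Psmb8, Tap2, with Psmb9 on the opposite strand to the other 3. The RefSeq windows of Psmb9 and Tap1 cover 275 bases in common, and that of Tap1 is shown because both genes start within it.
Tap1 (chr17:34187306-34187605, plus strand): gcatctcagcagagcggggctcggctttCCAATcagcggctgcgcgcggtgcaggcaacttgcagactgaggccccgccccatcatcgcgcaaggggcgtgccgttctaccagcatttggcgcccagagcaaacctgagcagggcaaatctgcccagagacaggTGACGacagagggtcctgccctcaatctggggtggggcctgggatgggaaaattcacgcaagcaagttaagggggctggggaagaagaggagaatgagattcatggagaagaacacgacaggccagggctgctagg
This window held TGACG at -86 and CCAAT at -222 from the Tap1 start, in an order and spacing unlike those of the class I chains. Their bodies overlap by 212 bases in GENCODE M21, where 8 of the 10 members, all but H2-K1 and H2-D1, overlap some gene of the opposite strand. Reads overlapping more than 1 gene were 0.715% to 0.836% of all counted reads, and the library kit named in the labels does not mark strand, so reads there cannot be assigned to a strand.

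Psmb9 encodes the immunoproteasome subunit that takes the place of the Psmb6 product. It stood at 154, 114 and 129 CPM in the NKG2D+ libraries 1, 2 and 3, against 114, 113 and 109 CPM in NKG2D- libraries 1, 2 and 3. NKG2D+ library 2 lay within the NKG2D- range, and library 1 stood above all others. The fold was 1.18 (95% interval 0.982 to 1.41, adjusted p = 0.283 by edgeR), and the log2 fold change of 0.24 (SE 0.11) was 0.11 without NKG2D+ library 1 and 0.07 with the B cell covariate. The Psmb9 to Tap1 ratio was 0.375 ± 0.024 in NKG2D+ against 0.408 ± 0.020 in NKG2D- libraries (SD, n = 3 each), with overlap, and was lower in NKG2D+ in 3 of 3 same-numbered pairs.

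Psmb8, whose product takes the place of that of Psmb5, stood at 359, 344 and 350 CPM in the NKG2D+ libraries 1, 2 and 3, against 320, 341 and 345 CPM in NKG2D- libraries 1, 2 and 3. The groups overlapped, and the interval for the fold of 1.05 ran from 0.943 to 1.16 (adjusted p = 0.612 by edgeR). Psmb10, whose product takes the place of that of Psmb7, was the member with a negative log2 fold change, at -0.09 (SE 0.08, adjusted p = 0.576). It stood at 124, 138 and 127 CPM in the NKG2D+ libraries 1, 2 and 3, against 148, 132 and 133 CPM in NKG2D- libraries 1, 2 and 3, and the interval for its fold of 0.941 ran from 0.829 to 1.07.

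RNA counts of each immunosubunit were set as a ratio to those of the constitutive one it replaces. The exchange of the subunits themselves, which are proteins, was not measured. Psmb8 to Psmb5 was 7.48 ± 0.435 in NKG2D+ against 6.64 ± 0.766 in NKG2D- libraries, and Psmb10 to Psmb7 was 2.58 ± 0.308 in NKG2D+ and 2.62 ± 0.108 in NKG2D- (SD, n = 3 each), both with overlap. Within same-numbered pairs Psmb8 to Psmb5 was higher in NKG2D+ in 3 of 3 (7.52 against 5.77, 7.02 against 6.94 and 7.89 against 7.21), and Psmb10 to Psmb7 in 2 of 3. Psmb9 to Psmb6 was 2.59, 1.85 and 2.12 in NKG2D+ libraries 1, 2 and 3, against 1.70, 1.78 and 1.74 in NKG2D- libraries 1, 2 and 3, without overlap. The ratios are of counts, not per length, and are set only between populations.

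Tapbp encodes tapasin, which edits the peptides that the heavy chain keeps. Its level was 385, 432 and 432 CPM in the NKG2D+ libraries 1, 2 and 3, against 355, 406 and 414 CPM in NKG2D- libraries 1, 2 and 3. The groups overlapped, yet the NKG2D+ library was higher in each same-numbered pair, by 1.04 to 1.09 times. The fold was 1.06 (95% interval 0.921 to 1.23), with an adjusted p of 0.62 by edgeR and 0.345 with the replicate block.

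Nlrc5 encodes the transactivator of class I genes. It stood at 483, 498 and 536 CPM in the NKG2D+ libraries 1, 2 and 3, against 397, 487 and 480 CPM in NKG2D- libraries 1, 2 and 3. NKG2D+ library 1 lay within the NKG2D- range, and NKG2D- library 1 was the lowest of all. The fold was 1.11 (95% interval 0.947 to 1.31), the log2 fold change being 0.15 (SE 0.10) at an adjusted p of 0.431 by edgeR. Without NKG2D- library 1 the log2 fold change was 0.06, and with the B cell covariate 0.02.

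**Figure D3:**
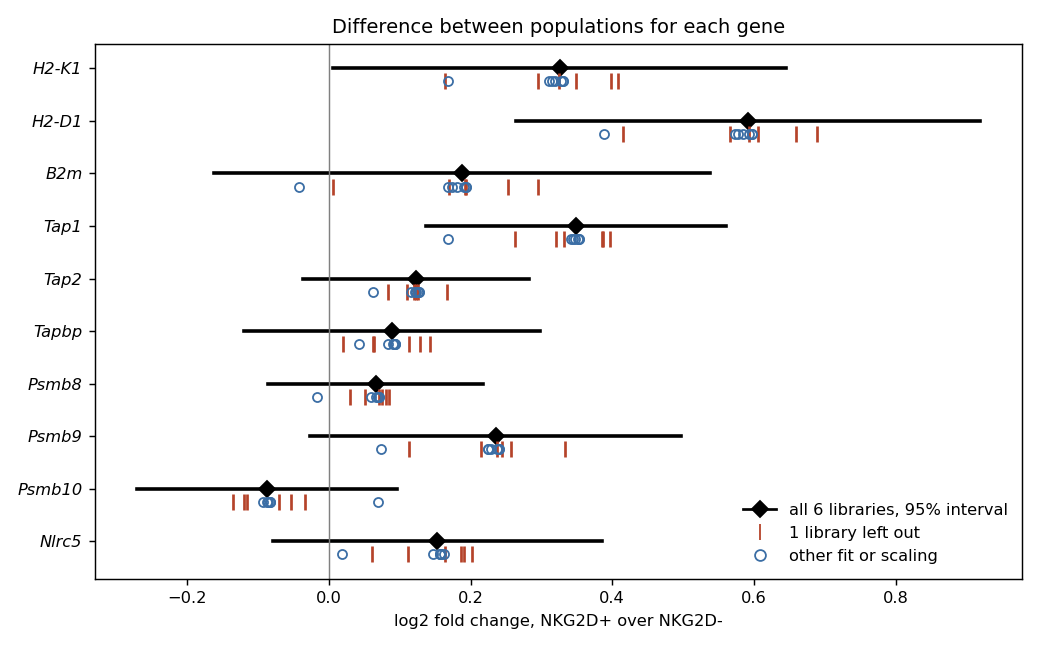
Log2 fold change of NKG2D+ over NKG2D- for each gene (horizontal axis), with black diamonds and lines for edgeR on all 6 libraries and its 95% interval, red ticks for fits with 1 library left out, and blue circles for the other 7 settings. H2-D1 lies farthest from 0 at 0.59, Psmb10 is the one gene below 0 on all 6 libraries, and the leftmost circle of most genes is the fit with the B cell covariate.

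The members did not share one profile over the libraries. NKG2D+ library 1 was the highest of all 6 for 7 genes, H2-K1, H2-D1, B2m, Tap1, Tap2, Psmb8 and Psmb9, where it was the highest for 30.2% of all genes tested. For Tapbp and Nlrc5 NKG2D+ library 3 was the highest, and for Psmb10 NKG2D- library 1 was the highest and NKG2D+ library 1 the lowest. Likeness was measured as the root-mean-square difference between log2 CPM profiles over the 6 libraries, each centred on its mean. Tap2 and Psmb8 were the nearest pair at 0.058, followed by Tapbp and Nlrc5, also at 0.058, and H2-D1 and Psmb10 the farthest at 0.388. Against the mean profile of the 10, Tap2 was nearest at 0.049 and H2-D1 farthest at 0.215. Among 9334 other genes with at least 5 CPM, Fem1c (0.0091), Ppp3ca (0.017), 8430406I07Rik (0.0194), Mllt3 (0.0216) and Nfe2l1 (0.0232) were nearest to that mean, and the median was 0.18. Of the 9334, 5963 were at least as near as H2-D1.

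The rest of the pathway was described by lists. For the counts below, 21.1% of all genes had an unadjusted p under 0.05 by edgeR, and 47.2% had a positive log2 fold change. DESeq2 called 11.1% of all genes and limma-voom 0.641%. Of 30 other class I heavy chain genes, 28 were in the files and 20 were tested. By edgeR 0 passed, with 5 at an unadjusted p under 0.05, DESeq2 called 1 and limma-voom 0, and 17 of 20 log2 fold changes were positive with a median of 0.17. H2-Q2 had the smallest p and stood at 64.6, 40.9 and 40.4 CPM in the NKG2D+ libraries 1, 2 and 3, against 30.7, 31.8 and 31.7 CPM in NKG2D- libraries 1, 2 and 3 (log2 fold change 0.63, SE 0.18, adjusted p = 0.124 by edgeR). H2-Q4 and H2-T23, the gene of the NKG2A ligand Qa-1, were chosen after their values were seen. H2-Q4 averaged 590 ± 63.8 CPM in NKG2D+ against 478 ± 26.9 CPM in NKG2D- libraries, and H2-T23 averaged 453 ± 74.4 CPM in NKG2D+ and 359 ± 4.5 CPM in NKG2D- libraries (SD, n = 3 each). Their adjusted p was 0.145 and 0.172 by edgeR, and neither group pair overlapped. H2-T10 and H2-Q10, also named after their values were seen, had all NKG2D+ libraries below. H2-T10 averaged 34.8 ± 1.76 CPM in NKG2D+ and 39.9 ± 1.07 CPM in NKG2D- libraries (SD, n = 3 each, adjusted p = 0.182 by edgeR). H2-Q10 averaged 10.99 ± 4.62 CPM in NKG2D+ and 17.1 ± 2.23 CPM in NKG2D- libraries (SD, n = 3 each, adjusted p = 0.317 by edgeR). Of the 20 tested, 4 had NKG2D+ libraries all above and 2 all below, against 15.1% and 14.1% of all genes. Class I genes are a family of related sequences, and how reads were shared among these genes was not measured, so their separate levels are uncertain.

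Of 11 further chaperones and trimming enzymes of the endoplasmic reticulum, 0 passed by edgeR, DESeq2 or limma-voom, with 1 at an unadjusted p under 0.05 and a median log2 fold change of 0.05. That 1 was Erap1, the peptidase that shortens peptides for class I, at 161, 187 and 186 CPM in the NKG2D+ libraries 1, 2 and 3, against 196, 212 and 228 CPM in NKG2D- libraries 1, 2 and 3 (log2 fold change -0.25, SE 0.09, adjusted p = 0.175). All NKG2D+ libraries lay below all NKG2D- libraries.

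The constitutive catalytic subunits and the proteasome activator made a list of 8 tested genes. All 8 had a negative log2 fold change, from -0.18 to -0.06 with a median of -0.10, and 5 of them had NKG2D+ libraries all below, against 14.1% of all genes. DESeq2 and limma-voom called 0, and so did edgeR, by which 1 had an unadjusted p under 0.05. Psme1, a subunit of the interferon-inducible activator PA28, stood at 245, 279 and 245 CPM in the NKG2D+ libraries 1, 2 and 3, against 294, 290 and 288 CPM in NKG2D- libraries 1, 2 and 3 (adjusted p = 0.221 by edgeR). Among 8 peptidases of the cytosol 0 passed by edgeR, DESeq2 or limma-voom, with 2 at an unadjusted p under 0.05. Lap3, an aminopeptidase that interferon-gamma induces, stood at 26.3 ± 3.59 CPM in NKG2D+ against 33.7 ± 1.38 CPM in NKG2D- libraries (SD, n = 3 each, log2 fold change -0.36, adjusted p = 0.138 by edgeR).

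Of 23 transcriptional regulators of class I genes 0 passed by edgeR, with 2 at an unadjusted p under 0.05, DESeq2 called 1 and limma-voom 0. The median log2 fold change was 0.02, and 12 of 23 were positive. The smallest p was that of Ezh2, a histone methyltransferase that represses class I genes in some tumours, at 31.6 ± 5.51 CPM in NKG2D+ against 20.2 ± 0.401 CPM in NKG2D- libraries (SD, n = 3 each, log2 fold change 0.65, SE 0.13, adjusted p = 0.0596 by edgeR). It passed under 4 of the alternatives, namely DESeq2, no filter on low counts, and without NKG2D+ library 1 or 2.

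Interferon-gamma, its receptor and its targets made a list of 17 tested genes, of which 0 passed by edgeR with 4 at an unadjusted p under 0.05. DESeq2 called 1 and limma-voom 0. Ifng stood at 127, 31.6 and 42.9 CPM in the NKG2D+ libraries 1, 2 and 3, against 17.4, 12.8 and 8.81 CPM in NKG2D- libraries 1, 2 and 3 (log2 fold change 2.37, SE 0.56, adjusted p = 0.0851 by edgeR). All NKG2D+ libraries were higher, library 1 by far, and without it the log2 fold change was 1.53 with an adjusted p of 0.0489 by edgeR, where 4.13% of all genes passed. Without NKG2D+ library 2 it was 2.71 with an adjusted p of 0.0372, where 9.96% passed. The adjusted p was 0.163 to 0.296 with each of the other 4 libraries left out, 0.146 by limma-voom and 0.0806 with the replicate block, and the log2 fold change was 1.69 with the B cell covariate (adjusted p = 0.9995). Of the other 3 genes at an unadjusted p under 0.05, named after their values were seen, Ifngr2 had a log2 fold change of 1.04, while Ifngr1 (-0.34) and Iigp1 (-0.48) lay in the other direction. Ifngr1 encodes the ligand-binding chain of the receptor and stood at 241 ± 25.01 CPM in NKG2D+ against 305 ± 37.2 CPM in NKG2D- libraries (SD, n = 3 each), without overlap. The median of the list was 0.07, and the members listed above, themselves induced by this cytokine, lay between -0.09 and 0.59 beside that.

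**Figure D4:**
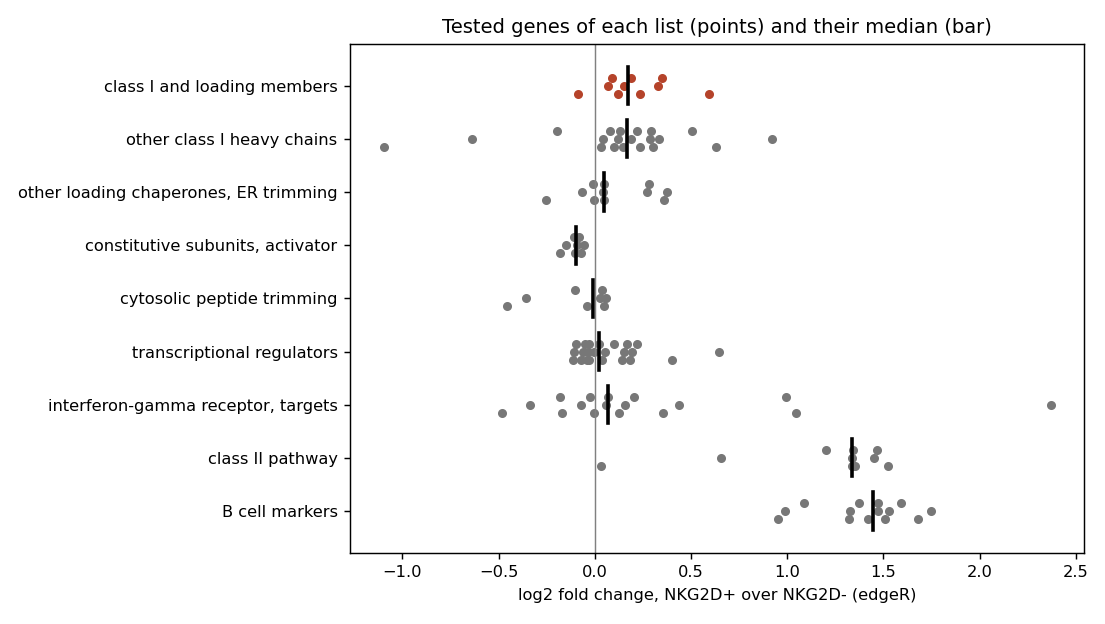
Log2 fold change of NKG2D+ over NKG2D- by edgeR (horizontal axis) for every tested gene of each list, a point a gene, with the median as a black bar; points are spread vertically for sight only. The 10 members (red) have a median of 0.17, the constitutive subunits and activator all lie below 0, and class II pathway and B cell marker genes have medians of 1.34 and 1.45.

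The class II pathway, which in mice belongs mainly to antigen-presenting cells, differed more than class I without passing. The log2 fold change was above 0 for all 10 tested genes (median 1.34), 0 passed by edgeR with 8 at an unadjusted p under 0.05, DESeq2 called 1 and limma-voom 0. Cd74, the invariant chain, stood at 720, 268 and 323 CPM in the NKG2D+ libraries 1, 2 and 3, against 83.3, 235 and 161 CPM in NKG2D- libraries 1, 2 and 3. Of 14 B cell markers 0 passed by edgeR with 12 at an unadjusted p under 0.05, DESeq2 called 7 and limma-voom 0, and Cd22 was at 147, 200 and 207 CPM in NKG2D+ and 58.0, 113 and 115 CPM in NKG2D- libraries 1, 2 and 3. NKG2D+ library 1 held the most and NKG2D- library 1 the least of the class II and B cell sums. In that pair the difference was the widest of the 3 pairs for all 10 members, 9 of them higher and Psmb10 lower in NKG2D+. The share of all genes with their widest difference in that pair was not counted. Among all genes, NKG2D+ library 1 was the highest library for 30.2% and the lowest for 31.9%. NKG2D- library 1 was the highest for 21.1% and the lowest for 19.2%. Whether class II or B cell level accounts for the members' differences in that pair was not tested.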

How the data were processed

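RNA of sorted cells was made into TruSeq libraries, per the labels' protocols. The authors deposited raw counts of reads for each gene symbol, library by library. Per the submitters' processing notes, CASAVA 1.8.2, TopHat2 2.0.4 and mm9 were used. Counting program, annotation and strand setting: not given in the sources used here. The files also hold 5 summary counts that entered neither library sizes nor tests, namely reads outside genes (14.0% to 15.9%), overlapping several genes (0.715% to 0.836%), aligned to several places (19.7% to 26.2%), and 2 kinds at 0.

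The test was edgeR 4.0.16 in R 4.3.3 (quasi-likelihood, TMM, robust, group as the only term), run on 12951 genes kept by filterByExpr (minimum count 10, minimum total 15), with Benjamini-Hochberg adjustment over all of them and a threshold of 0.05. The script was tested on simulated data, drawn with dispersions from the fitted trend. At a fold of 1.5 it called 14 of 50 changed genes (28%). At folds of 2, 4 and 8 it called 68%, 96% and 98%, and 3 of all 148 calls were false. The widest fold of the 10 members was 1.51 by edgeR, that of H2-D1. The SE is the log2 fold change divided by the square root of F, and 95% intervals use the t distribution with the fit's degrees of freedom. DESeq2 1.42.0, limma-voom (limma 3.58.1), other scalings, no filter, a B cell marker covariate, a replicate block and leaving out each library were the alternatives. Log2 profiles used an offset of 0.5 CPM.

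Replicate numbers come from the labels. Since the series names 3 mice, libraries of equal number were taken as pairs in the pair comparisons and the block fit, not in the main test. The labels do not state outright that such libraries share a mouse. Deviations of paired libraries from the group means correlated across genes with r = 0.25, 0.20 and 0.38. Within a group, chi-square per degree of freedom between libraries was 40.7 or more, so none was a copy. The members, lists and motifs were chosen with earlier results of these data known. Beyond the members and sort markers, up to 4 called genes of each list by smallest p, or the 1 with the smallest p, and the 5 nearest profiles were named.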

Additional observations from a re-analysis of the deposited data

How the results depend on the processing

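The count of genes called moved with the tool and the libraries. It was 1433 by DESeq2 (996 higher, 437 lower), 83 by limma-voom (60 and 23), 68 with the replicate block (57 and 11) and 2 with the B cell covariate (2 and 0), in place of 261 (214 and 47). With each library left out it ran from 8 to 1312 (4 to 904 higher, 4 to 408 lower). Of the 10 members, DESeq2 called 2, both higher, and leaving out a library gave 0 to 2; under the other scalings, no filter, limma-voom, the block and the covariate edgeR or limma called 0. The block changed no member's call. The log2 fold change of Klrk1 lay between 3.07 and 3.39 over all 13 alternatives. H2-D1, H2-K1, Tap1, Tap2, Tapbp, Psmb9 and Nlrc5 kept a positive sign in all 13. With the covariate, B2m turned to -0.041, Psmb8 to -0.017, Psmb10 to 0.069, Cd8a to -0.18 and Cd74 to -0.00086. With each library left out Cd8a ran from -0.059 to 0.37 and Cd3e from -0.0045 to 0.14, both below 0 without NKG2D+ library 1, and Cd8b1 from -0.33 to 0.089, above 0 without NKG2D+ library 3. The cause of these shifts was not tested. Klre1 and Ncam1, the NK cell markers called higher by edgeR (adjusted p = 0.0498 each), lost the call under the block (0.0714 and 0.0926) and under 8 and 10 of the 13 alternatives in all, keeping a positive sign. Ncam1 was under 1 CPM in every library, and the part of counting error in its spread was not measured.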
